A study of Mus musculus with 6 samples.

Results

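Forkhead transcription factors are a family of DNA-binding proteins named for the winged helix domain they share. The members described here are the protein-coding genes of the deposited table whose symbol follows the family's pattern of Fox, a letter from a to s and a number. The proliferation factor Foxm1 was left out by that rule. It gave 43 genes of the 49548 in the table and of the 21960 protein-coding ones. The rule used names and biotypes and no measured value, but the family was chosen with earlier results of these data known.

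The libraries were 3′ mRNA sequencing of sorted stromal cells from colonic adenomas of C57/BL6 mice with the genotype Col6a1-cre, Rosa26-mTmG, all of which underwent the AOM/DSS model, in which the mutagen azoxymethane (AOM) and the colitis agent dextran sodium sulfate (DSS) give rise to colitis-associated cancer. In the mTmG reporter, cells that expressed the Cre, which is driven by Col6a1 regulatory sequence, carry GFP and all other cells carry Tomato. After exclusion of cells with CD45, EpCAM, CD31 or Ter119, the GFP+ cells were taken as Col6a1+ cancer-associated fibroblasts (CAFs) in 3 libraries and the Tomato+ cells as Col6a1− CAFs in 3 libraries. The study pooled tumors of several mice for each sample, and it states that this Cre targets mainly PDGFRa-high fibroblasts and perivascular cells, while the Tomato+ sort holds the trophocytes and most PDGFRa-low fibroblasts. The labels give no age, and no tumor-free mice are analysed here.

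The domain reads DNA through a recognition helix that lies in the major groove of its target. FOXF1, FOXF2 and FOXL1 are the classical forkhead factors of the gut mesenchyme, where they are switched on by hedgehog ligands from the epithelium, and FOXL1 marks telocytes, the large subepithelial cells that signal to the crypt. FOXA proteins open chromatin in endoderm, FOXO proteins are held out of the nucleus by PI3K and AKT signaling, and FOXC and FOXS1 proteins are known from vessels and mural cells.

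The stretch that codes for the core of the recognition helix is given here for the genes on which the results turn. It was found in the GENCODE M21 transcripts (GRCm38, the same build as mm10) as 24 bases that code for 8 residues of a fixed pattern, in 38 of the 43 members. Foxe1, Foxe3, Foxh1, Foxr1 and Foxr2 did not match the pattern. All sequences are in the direction of the gene, and capitals mark codons 3 and 6, counted from the first base shown.
Foxf1: aactccGTGcgccacAACctgtcg
Foxf2: aactccGTGcgccacAACctctcg
Foxq1: aactccGTGcgccacAACctctcg
Foxl1: aacagcATCcgccacAACctgtcg
Foxs1: aacagcATCcgccatAACctgtct
Foxc1: aacagcATAcggcacAACctctcg
Foxa1: aactccATCcgccacTCGctgtcc
Foxa2: aactccATCcgccacTCTctctcc
Foxa3: aactccATCcggcatTCGctgtcc

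The bases of Foxf1 lie at chr8:121084678-121084701 on the plus strand, those of Foxs1 at chr2:152932919-152932942 on the minus strand and those of Foxa2 at chr2:148044258-148044281 on the minus strand, each within an exon. The search pattern itself fixed the residues of codons 1, 4, 5, 7 and 8, and 7 of the 24 bases were the same in all 38 members. At the codons left free, codon 6 coded for another residue in 3 members only, Foxa1, Foxa2 and Foxa3. Codon 3 coded in 12 members for another residue than in the rest, Foxf1, Foxf2 and Foxq1 among them, and the stretches of Foxf2 and Foxq1 were identical over all 24 bases. Foxs1 and Foxl1 shared 22 of 24 bases.

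The 6 libraries summed to 3039152 to 3425249 normalized counts each, and between 22 and 29 members were above 0 in a library, the fewest in Col6a1+ replicate 1, which also had the fewest genes above 0 over the whole table (14530, against 18770 to 20511 in the others). Where a library shows 0 for a gene, as many as 3 counts remain possible. Of the 43 members, 11 stood at 0 in every library and 32 were tested, of which 24 had a mean of at least 10 normalized counts over the 6 libraries. A normalized count is the read count of a gene divided by the authors' size factor of the library. Log2 fold changes are differences of mean log2(normalized count + 1), positive where Col6a1+ CAFs were higher, and called means an adjusted p under 0.05 (limma, Benjamini-Hochberg over 26402 genes).

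Col6a1+ CAFs had more RNA of Foxs1 and Foxf1, and Col6a1− CAFs had more of Foxa2. These were the called members: 2 of 32 were higher in Col6a1+ CAFs (6.25%, against 2.66% of all genes tested) and 1 of 32 was lower (3.12%, against 1.96%). In bulk samples, fewer cells of a type and less RNA per cell cannot be told apart. The 3 and 3 libraries did not overlap for 4 members higher in Col6a1+ CAFs (Foxf1, Foxl1, Foxc1 and Foxs1), which is 12.5% of members against 7.91% of all genes. They did not overlap for 4 members lower there (Foxq1, Foxa1, Foxa2 and Foxa3), again 12.5%, against 11.6% of all genes. The same 4 and 4 members changed by more than 1 on the log2 scale at an unadjusted p under 0.05, a criterion that 6.09% of all genes met in the higher and 8.61% in the lower direction. The median log2 fold change was 0.01 over the 32 members and -0.27 over all genes tested, and 0.02 over the 24 better measured members against -0.15 over the 13515 genes that averaged 10 or more.

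**Figure D1:**
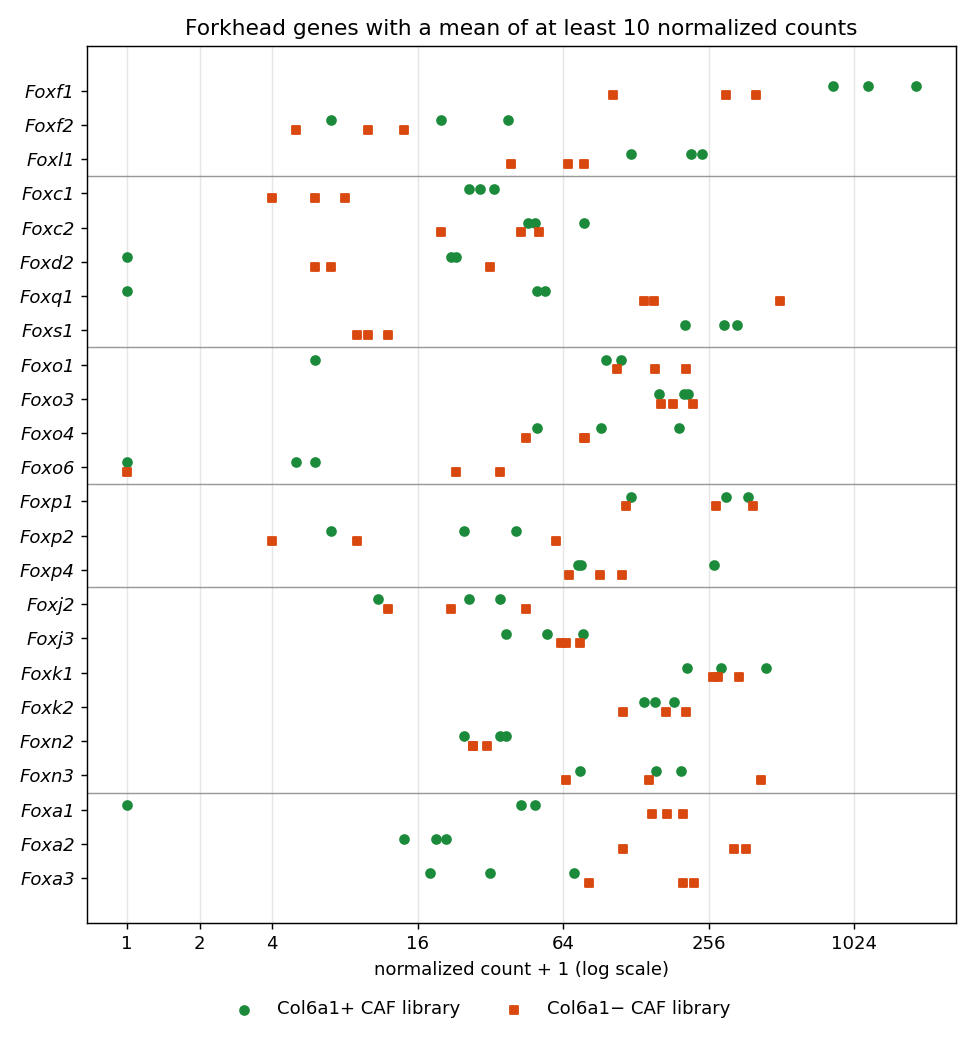
Normalized count plus 1 (log axis) of the 24 forkhead genes averaging at least 10, one point per library, with green circles for the 3 Col6a1+ and orange squares for the 3 Col6a1− CAF libraries and lines between groups of related genes. Foxs1 shows the widest gap, 204 or more in green against 11 or less in orange, and the 3 Foxa genes lie to the right in orange.

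Foxf1 is the forkhead gene of the visceral mesenchyme and lies at chr8:121084386-121088144 on the plus strand. It stood at 1850, 1170 and 835 normalized counts in Col6a1+ replicates 1, 2 and 3 and at 402, 302 and 102 in Col6a1− replicates 1, 2 and 3. The lowest Col6a1+ library was thus above the highest Col6a1− one. The means were 1285 ± 517 and 269 ± 153 (SD, n = 3 each), a 4.78-fold difference, with a log2 fold change of 2.39 (SE 0.49, adjusted p = 0.0224). When replicate numbers entered the fit as a block, it was 0.0612 over all genes, where no gene of the table passed, and 0.0026 over those averaging 10 or more. Without any one of the libraries, Col6a1+ replicate 1, 2 or 3 or Col6a1− replicate 1, 2 or 3, the call was lost, with adjusted p of 0.139 to 0.263 and log2 fold changes of 1.80 to 2.79. Between the same sorts, 12 markers of fibroblasts at large had a median log2 fold change of 2.36, with 9 called higher and 0 lower. The part of fibroblast RNA in the differences of Foxf1, and of Foxl1 below, was not tested.

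Foxl1, the telocyte gene, lies 39796 bp from Foxf1 on the same strand. It stood at 240, 216 and 121 normalized counts in the Col6a1+ libraries and at 66, 77 and 38 in the Col6a1− libraries, so the groups did not overlap. The log2 fold change was 1.66 (SE 0.43), and its adjusted p of 0.0592 missed the threshold over all genes tested. Among genes averaging 10 or more it was 0.043, or 0.0173 with the block, and it was 0.0851 with the block over all genes. Leaving out 1 library at a time gave 0.164 to 0.262, with log2 fold changes of 1.36 to 1.96. In limma-voom the adjusted p was 0.0667, and Foxl1 passed in 4 of 14 alternative fits.

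Foxf2, the near relative of Foxf1 that shares its role in gut mesenchyme, was sparse, at 6, 19 and 37 normalized counts in Col6a1+ and 4, 9 and 13 in Col6a1− libraries. The groups overlapped, and the log2 fold change was 0.98 (SE 0.93, adjusted p = 0.642).

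Foxs1, a factor known from pericytes and neural crest derivatives, lies at chr2:152931898-152933208 on the minus strand and had the largest log2 fold change of the 32 members tested. Its libraries held 204, 297 and 334 normalized counts in Col6a1+ CAFs and 8, 11 and 9 in Col6a1− CAFs. The gene was close to its floor in every Col6a1− library and well measured in every Col6a1+ one. The means were 278 ± 67.0 and 9.33 ± 1.53 (SD, n = 3 each), a 29.8-fold difference, with a log2 fold change of 4.74 (SE 0.45, adjusted p = 7.80e-04). The adjusted p was 0.0612 with the block over all genes and 0.0015 with the block over genes averaging 10 or more. It was 0.0503, 0.0924 and 0.14 without Col6a1+ replicate 1, 2 or 3 and 0.0581 without Col6a1− replicate 1, fits in which no gene of the table passed, while the log2 fold change stayed between 4.59 and 4.94 in every fit that left out a library.

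Mural cell genes moved with Foxs1. Of 14 smooth muscle and pericyte markers, 13 were higher in Col6a1+ CAFs and 0 lower (median log2 fold change 4.32), and their sum was 53839 to 107970 normalized counts there against 1614 to 4374 in Col6a1− CAFs. Rgs5, a pericyte gene, was at 34368 ± 6809 against 502 ± 202 (SD, n = 3 each), and Kcnj8, the pericyte potassium channel, at 272 ± 74.4 against 10.7 ± 4.16. Within the Col6a1+ sort the order differed, since replicate 1 had the highest marker sum and the lowest Foxs1. The part of mural cells in the difference of Foxs1 was not tested. Markers of fibroblasts at large rose too, with 9 of 12 called higher and sums of 50264 to 66025 against 8050 to 17045.

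Foxc1, which acts in vessel and mesenchyme development, stood at 28, 25 and 32 normalized counts in Col6a1+ CAFs and at 7, 3 and 5 in Col6a1− CAFs. The groups did not overlap, but the values were low and the log2 fold change of 2.34 (SE 0.78) had an adjusted p of 0.142. Foxc2, known from lymphatic valves, stood at 45, 48 and 77 against 50, 19 and 42, with groups that overlapped (log2 fold change 0.67, SE 0.54, adjusted p = 0.603). Foxd2 had 0, 22 and 21 against 5, 31 and 6 normalized counts (log2 fold change -0.47, SE 1.34), and its relative Foxd1, a stromal factor of the kidney, was at 0 in all 6 libraries.

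Foxq1, known for its part in mucin production of the stomach, ran the other way. It stood at 0, 49 and 53 normalized counts in Col6a1+ CAFs and at 138, 151 and 503 in Col6a1− CAFs. Although the groups did not overlap, the spread was wide in both, and the log2 fold change of -3.98 (SE 1.30) had an adjusted p of 0.13. It was 0.195 with the block over all genes and 0.028 with the block over genes averaging 10 or more. Without Col6a1+ replicate 1, the library at 0, the log2 fold change was -2.08 (SE 0.64, adjusted p = 0.174).

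**Figure D2:**
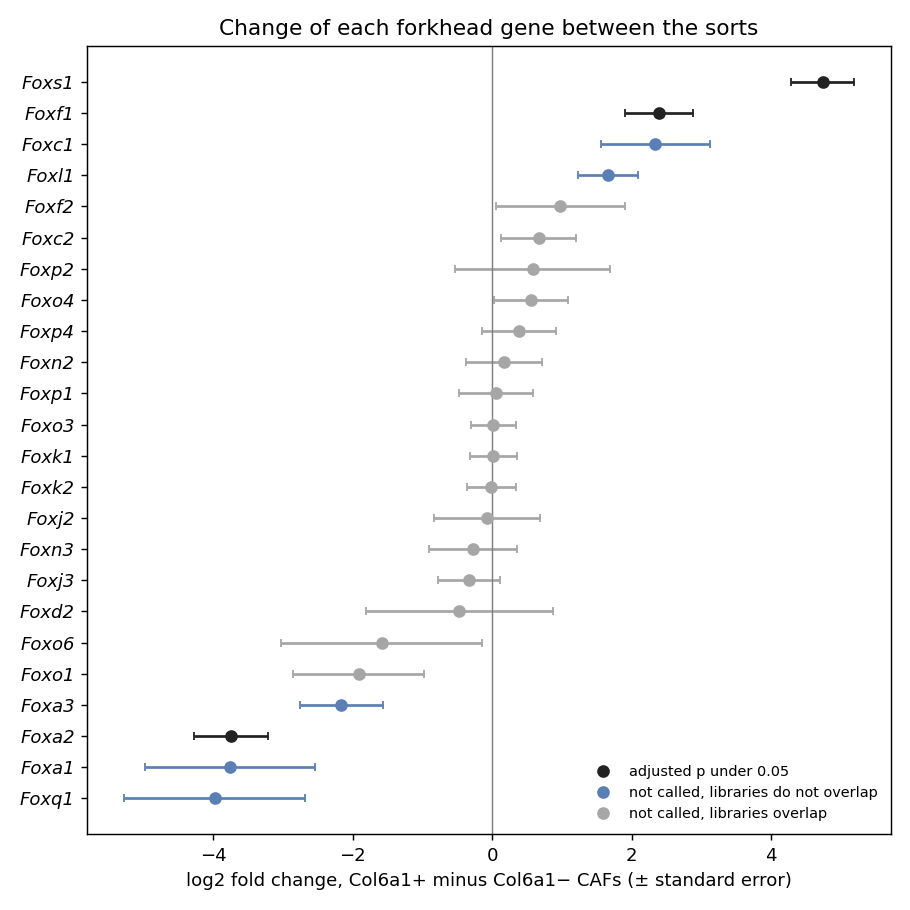
Log2 fold change of the same 24 genes (Col6a1+ minus Col6a1− CAFs, bars are ± 1 standard error of the fit), ordered by size. Foxs1 and Foxf1 on the right and Foxa2 on the left (black) passed an adjusted p under 0.05, blue points did not pass although their libraries did not overlap, and the 16 grey genes lie between -1.91 and 0.98.

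Foxf1, Foxc2 and Foxl1 lie within 46.3 kb of chromosome 8 on the plus strand, a gene cluster old in vertebrates. Mthfsd, a gene on the minus strand, lies between Foxf1 and Foxc2 and stood at 12, 39 and 32 against 50, 23 and 45 normalized counts (log2 fold change -0.57, SE 0.64, adjusted p = 0.642). Of the 3 forkhead genes, Foxc2 was the one without a separation of the groups. A row of the table named Gm20388 spans all 3 genes on the same strand (chr8:119910841-124345722), so reads of the cluster may have been shared with it and the counts of these 3 genes are uncertain to that extent. Gm20388 itself stood at 1004, 823 and 619 normalized counts against 595, 411 and 325 (log2 fold change 0.89, adjusted p = 0.177).

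Fendrr, a long non-coding RNA on the minus strand that is read away from Foxf1 and is known as its partner in lateral mesoderm, starts 1276 bp from it. It stood at 2392, 601 and 1124 normalized counts in Col6a1+ CAFs and at 408, 102 and 24 in Col6a1− CAFs. The groups did not overlap, and the log2 fold change of 3.53 (SE 0.85) passed the threshold (adjusted p = 0.0417, and 0.109 with the block over all genes or 0.00632 with the block over genes averaging 10 or more). Leaving out 1 library at a time gave log2 fold changes of 2.52 to 4.53 with adjusted p of 0.114 to 0.434, so the call was lost in each. Within a sort the neighbours did not keep 1 ratio, since Foxf1 was 0.743 to 1.95 times Fendrr in the Col6a1+ libraries and 0.985 to 4.25 times Fendrr in the Col6a1− libraries.

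The window around the start of Fendrr (chr8:121083061-121083360, minus strand, RefSeq on GRCm38.p6, 250 bases before to 50 after the start) is shown because it faces Foxf1 and holds the forkhead consensus TGTTTAC in its reverse spelling GTAAACA (capitals), 129 bases before the start.
Fendrr: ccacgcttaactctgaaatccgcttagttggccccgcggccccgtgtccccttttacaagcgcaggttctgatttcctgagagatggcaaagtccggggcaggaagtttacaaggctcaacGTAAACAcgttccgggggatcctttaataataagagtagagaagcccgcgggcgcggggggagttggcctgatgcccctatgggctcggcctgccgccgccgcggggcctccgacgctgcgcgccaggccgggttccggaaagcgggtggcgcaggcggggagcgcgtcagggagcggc
On either strand, these letters occur in 3.65% of the 32851 windows of the RefSeq table. Of the members, 28 had 33 windows there, and 1 of the 33 held the letters, that of Foxa1, 141 bases before its start. The windows of members were rich in G and C, with a median of 62.7% against 52.7% in all windows, and 72.7% of them held the letters GGGCGG on either strand, against 35.7% of all windows.

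**Figure D3:**
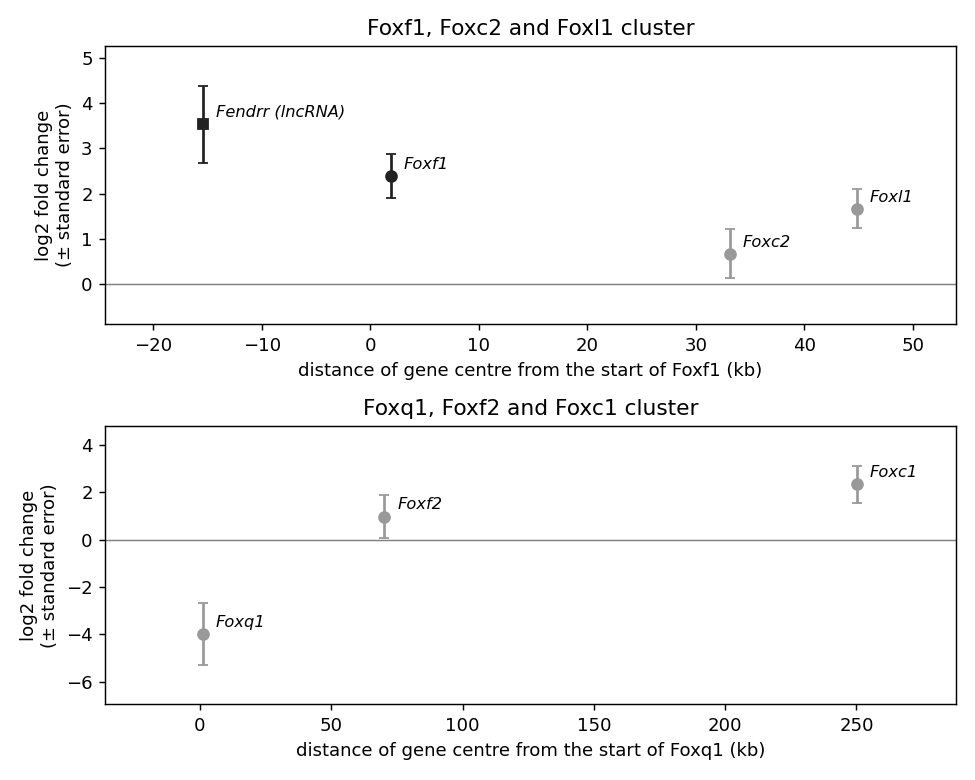
Log2 fold change (± 1 standard error) of the forkhead genes of 2 clusters against the distance of each gene's centre from the start of the first gene, in kb, with Fendrr as a square and called genes in black. In the upper cluster Fendrr (3.53) and Foxf1 (2.39) were called higher, and in the lower one Foxq1 and Foxc1, which did not pass the test, have opposite signs.

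A second cluster on chromosome 13 holds Foxq1, Foxf2 and Foxc1 within 252 kb on the plus strand. Here the outer genes had opposite signs, at -3.98 for Foxq1 and 2.34 for Foxc1, with Foxf2 at 0.98 between them. Foxq1 overlaps a gene on the other strand, A530084C06Rik, which had at most 13 normalized counts in any library.

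The hedgehog pathway, which acts upstream of Foxf1 and Foxl1 in gut mesenchyme, was measured in a list of 16 genes. That list was chosen with earlier results of these data known. Of these, 1 rose and 0 fell (limma), or 4 and 4 at an unadjusted p under 0.05, with a median log2 fold change of 0.47. Over all 26402 genes tested, 2.66% were called higher and 1.96% lower, and 1751 and 2483 genes had an unadjusted p under 0.05. Ptch1, the receptor and a feedback target of the pathway, was at 327, 407 and 288 normalized counts in the Col6a1+ libraries and 138, 114 and 84 in the others (log2 fold change 1.61, SE 0.33, adjusted p = 0.0227, and 0.0797 with the block). Libraries did not overlap either for the transcription factors Gli1 (150 ± 56.1 against 40.3 ± 31.1, adjusted p = 0.116) and Gli2 (59.3 ± 19 against 10.3 ± 7.51, adjusted p = 0.0786), which did not pass. The epithelial ligand Ihh was at 142, 22 and 31 against 186, 160 and 130 (log2 fold change -1.74, adjusted p = 0.173).

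Genes known from Foxl1+ telocytes rose in 6 of 20 cases and fell in 0 (limma), or 9 and 1 at an unadjusted p under 0.05, with a median log2 fold change of 0.69. Of all genes tested, 2.66% were called higher and 1.96% lower. In the list, 6 genes had a negative log2 fold change, as low as -2.95, and none of these was called. Among the called genes were Pdgfra (log2 fold change 2.04, adjusted p = 0.00588), the BMP ligand Bmp3 (3.62, adjusted p = 0.0225), the non-canonical Wnt ligand Wnt5a (1.86, adjusted p = 0.0105) and Procr (2.39, adjusted p = 0.00203). The list is not independent of the sort, since the Cre was known to mark PDGFRa-high fibroblasts, and no gene of any list passed with the block over all genes, where the smallest adjusted p of the table was 0.0612, or without Col6a1+ replicate 1, 2 or 3 or Col6a1− replicate 1.

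The 3 Foxa genes, pioneer factors of the endoderm that are needed for goblet and enteroendocrine cells, all had lower means in Col6a1+ CAFs, and 1 of the 3 was called. Foxa2, at chr2:148042877-148046969 on the minus strand, stood at 20, 18 and 13 normalized counts in Col6a1+ CAFs and at 364, 112 and 326 in Col6a1− CAFs. The Col6a1+ libraries lay close together and far below each of the Col6a1− ones. The means were 17 ± 3.61 and 267 ± 136 (SD, n = 3 each), a 15.7-fold difference, with a log2 fold change of -3.75 (SE 0.53, adjusted p = 0.00358). The adjusted p was 0.068 with the block over all genes and 0.0038 with the block over genes averaging 10 or more. It was 0.0628, 0.121 and 0.163 without Col6a1+ replicate 1, 2 or 3, and 0.0863 and 0.124 without Col6a1− replicate 1 or 3, with log2 fold changes of -4.28 to -3.44 over all fits that left out a library.

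Foxa1 stood at 0, 42 and 48 normalized counts in the Col6a1+ and 172, 149 and 200 in the Col6a1− libraries (log2 fold change -3.76, SE 1.22, adjusted p = 0.129). Without Col6a1+ replicate 1, the library at 0, its log2 fold change was -1.92 (SE 0.22, adjusted p = 0.0509). Foxa3 stood at 70, 31 and 17 against 81, 199 and 221 (log2 fold change -2.16, SE 0.59, adjusted p = 0.0709). Both pairs of groups were separate, that of Foxa3 narrowly, by replicate 1 of each sort. Foxa3 passed in 4 of 14 alternative fits, among them array quality weights (adjusted p = 0.00801) and limma-voom (0.0474). Foxa1 passed in 1 of 13, that with limma-voom (0.0409). With the block over all genes the adjusted p was 0.255 for Foxa3 and 0.252 for Foxa1. In fits that left out a library it reached 0.458 for Foxa3 and 0.532 for Foxa1.

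Epithelial genes moved with the Foxa genes, although the sort excluded EpCAM+ cells. Of 16 epithelial markers, 12 were lower in Col6a1+ CAFs and 0 higher (median log2 fold change -2.15, lowest -3.45), and their sum was 6621 to 8988 normalized counts against 28585 to 47855 in Col6a1− CAFs. Epcam itself was at 1074, 884 and 615 against 3107, 4129 and 3730, and Cdh1, the epithelial cadherin, at 2641 ± 332 against 12636 ± 2547 (SD, n = 3 each). The 3 Foxa genes together were at 90, 91 and 78 in Col6a1+ replicates 1, 2 and 3 and at 617, 460 and 747 in Col6a1− replicates 1, 2 and 3. Within the Col6a1− sort the order differed, since replicate 2 had the highest epithelial sum (47855) and the lowest Foxa sum, and replicate 1 the lowest epithelial sum (28585). The part of epithelial RNA in the differences of the Foxa genes was not tested.

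**Figure D4:**
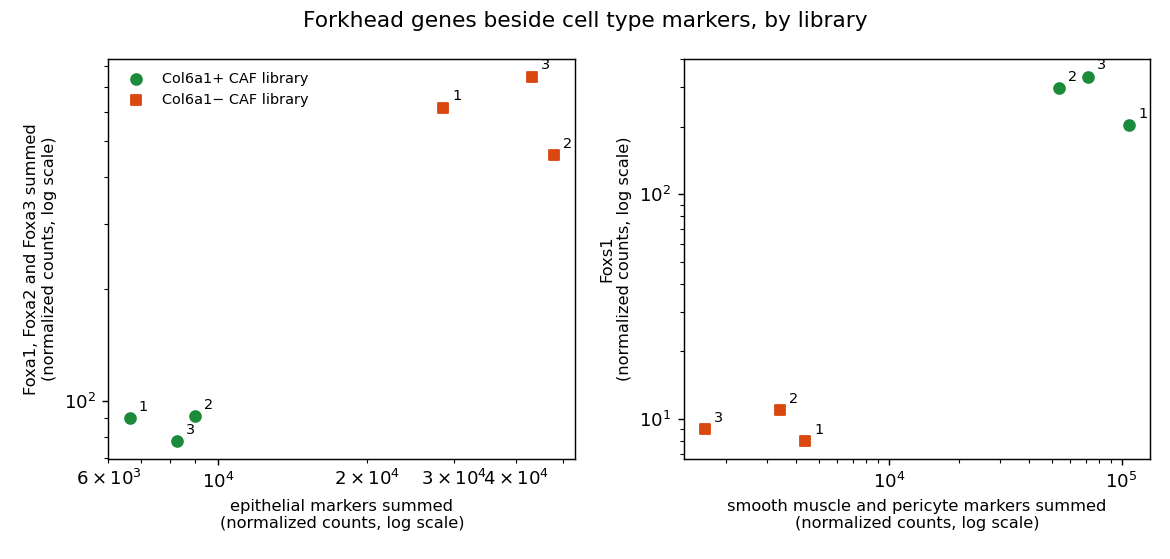
Left, the sum of Foxa1, Foxa2 and Foxa3 against the sum of 16 epithelial markers, and right, Foxs1 against the sum of 14 smooth muscle and pericyte markers, in normalized counts per library (log axes), with digits for the replicate number. The sorts fall into 2 separate groups in both panels, and within a sort the forkhead values do not follow the order of the marker sums.

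Markers of other cell types the sort could hold were summed in the same way. Immune markers summed to 96 to 142 normalized counts in Col6a1+ and 331 to 559 in Col6a1− CAFs, with 1 of 18 lower, the neutrophil gene S100a8. That gene alone was at 211, 387 and 167 in the Col6a1− libraries, a large part of their sums. Libraries did not overlap for 5 lower genes and for 1 higher gene, the T cell gene Trac (33.3 ± 4.93 against 2.33 ± 2.08, adjusted p = 0.0582). Over all genes tested, 2.66% were called higher and 1.96% lower, and libraries did not overlap for 7.91% in the higher and 11.6% in the lower direction. Foxp3, the factor of regulatory T cells, was at 0 in every library. Endothelial markers summed to 1606 to 2242 against 2074 to 3492, with Tie1 and Esam higher and Prox1 lower of 14. Most of the Col6a1− sums was Prox1 alone, at 2154, 1100 and 2644 there and 15, 139 and 93 in Col6a1+ CAFs. Most of the Col6a1+ sums was Esam, at 943, 971 and 1125 there and 54, 93 and 38 in Col6a1− CAFs. The sums therefore do not rank the sorts by endothelial RNA. Of the erythroid (sums of 110 to 1713 against 281 to 482), glial (63 to 93 against 70 to 132) and proliferation markers (778 to 1055 against 1034 to 1453), 0 were called by limma in either direction, and at an unadjusted p under 0.05 there were 0 erythroid genes, 1 higher and 1 lower glial gene, and 0 higher and 2 lower proliferation genes.

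The FOXO genes, which turn on stress resistance, atrophy and fasting genes when growth signaling is low, were all measured, and 0 of 4 were called by limma, or had an unadjusted p under 0.05. Foxo3 lay at 201, 210 and 158 normalized counts in Col6a1+ and 161, 219 and 182 in Col6a1− CAFs (log2 fold change 0.02, SE 0.32, adjusted p = 0.994). Foxo1 lay at 5, 110 and 95 against 106, 152 and 205. Col6a1+ replicate 1 stood apart from the others, and the log2 fold change of -1.91 (SE 0.94, adjusted p = 0.361) was -0.54 without that library. Foxo4 was at 192, 49 and 91 against 44, 78 and 77 (log2 fold change 0.56, SE 0.53), and Foxo6 had at most 34 normalized counts in any library (log2 fold change -1.58, SE 1.44).

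Genes that control FOXO proteins rose in 3 of 27 cases and fell in 0 (limma), or 7 and 2 at an unadjusted p under 0.05 (median log2 fold change 0.20). The PI3K regulatory subunit Pik3r1 was at 460 ± 123 normalized counts in the Col6a1+ and 126 ± 24.3 in the Col6a1− sort (SD, n = 3 each, log2 fold change 1.85, adjusted p = 0.0115). Of 34 FOXO target genes tested, 2 rose and 2 fell, or 5 and 7 at an unadjusted p under 0.05 (median -0.13), and the libraries did not overlap for 7 higher and 8 lower genes. Over all genes tested, 2.66% were called higher and 1.96% lower, and 7.91% and 11.6% did not overlap. Those that rose were Fbxo32, the muscle atrophy ubiquitin ligase (150 ± 42 against 35 ± 7.81, adjusted p = 0.0216), and Klf2 (703 ± 311 against 190 ± 59, adjusted p = 0.0342). Those that fell were the fasting genes Pdk4 (1.67 ± 2.08 against 52 ± 35.4, adjusted p = 0.0478) and Pck1 (1 ± 1.73 against 46.3 ± 31.5, adjusted p = 0.0462).

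The FOXP repressors were present in both sorts, and none of the 3 tested was called (limma, smallest adjusted p = 0.698). Foxp1 lay at 121, 372 and 302 normalized counts in Col6a1+ and 116, 273 and 390 in Col6a1− CAFs (log2 fold change 0.05, SE 0.53, adjusted p = 0.981). In both sorts replicate 1 was the lowest library. Foxp4 was at 269, 73 and 75 against 111, 90 and 67 (log2 fold change 0.38, SE 0.53), where the higher mean of Col6a1+ CAFs came from replicate 1, and Foxp2 was at 6, 24 and 40 against 3, 59 and 8 (log2 fold change 0.58, SE 1.11).

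The FOXK, FOXJ and FOXN genes with a mean of at least 10, several of which act in most cell types, differed little between the sorts, with log2 fold changes from -0.33 (Foxj3, SE 0.45) to 0.17 (Foxn2, SE 0.55) and adjusted p of 0.685 or more. Foxk1, which with Foxk2 restrains autophagy genes, lay at 443, 287 and 208 normalized counts in Col6a1+ and 340, 279 and 267 in Col6a1− CAFs (log2 fold change 0.02, SE 0.34). Foxk2 lay at 183, 152 and 138 against 169, 112 and 206 (log2 fold change -0.01, SE 0.35). Both genes overlapped fully between the sorts. Foxn3, a checkpoint repressor, was at 74, 195 and 154 against 65, 144 and 420 (log2 fold change -0.27, SE 0.63), and Foxj2 was at 10, 34 and 25 against 11, 21 and 44 (log2 fold change -0.08, SE 0.76).

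The remaining tested members were near the floor, with at most 6 normalized counts in any library. These were Foxj1 of motile cilia, Foxn1 of the thymic epithelium, Foxd3 of the neural crest, Foxe3 of the lens, and Foxn4, Foxi2, Foxb1 and Foxr1. The 11 members at 0 in all 6 libraries included Foxd1, Foxp3, Foxe1 of the thyroid, Foxi1 of ionocytes, Foxi3, Foxb2, Foxd4, Foxh1, a partner of SMAD proteins in the early embryo, Foxl2 of the ovary and Foxr2.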

How the data were processed

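The authors mapped the QuantSeq reads with TopHat2 to mm10, aligned what was left with Bowtie2, obtained gene counts through GenomicRanges and applied DESeq normalization in metaseqR. The table they deposited gives the log2 of the normalized count plus 1 for 49548 genes, which were whole normalized counts (within 1e-06) in 100% of values. Its columns of fold changes, p-values and false discovery rates from the authors' comparison, and 6 further per-sample columns, were not used. Groups and replicate numbers came from the labels.

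The deposited log2 values were fitted with limma 3.58.1 (R 4.3.3, eBayes with a trend, two-sided) over the 26402 genes that summed to 1 normalized count or more, with Benjamini-Hochberg adjustment, and the script was tested on simulated data. Low genes have their fold changes understated by the pseudocount of 1. The labels do not say how the replicates were collected, while the study states that each sample was a pool of tumors from several mice. The p-values therefore measure the spread between these pooled samples, not that between single mice, and part of it may be technical. The members, the gene lists and the tests were chosen with earlier results of these data known. The members were named with their values, apart from an item that is not reported here. Values in each library are given for those with a mean of at least 10 that were called or whose groups did not overlap, and for some others beside them, and of each list at most 4 called genes per direction are named, with uncalled hedgehog genes and marker genes added after their values were seen.

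Deviations from the group mean correlated at 0.245, 0.125 and 0.144 between replicates with the same number, over 13515 genes. Between different numbers the correlations ran from -0.245 to 0.150. These ranges overlapped and the labels state no pairing. The study counts 3 samples in all, each a pool of tumors, for the 6 libraries. Both sorts may thus come from the same pools, but the study does not say so, and pairing was not shown. If they do, the fit with the block is the one that respects the design. Over all genes tested no gene passed in it, while over genes averaging 10 or more some did. The calls come from the fit without the block, and a blocked fit is quoted where it changes a call. Alternatives were library size alone, 2 filters on low values, limma-voom, the block, a pseudocount of 0.1, array quality weights, unadjusted p-values, and leaving out each library. Coordinates of genes are those of the deposited table (mm10). Figures were drawn with Matplotlib 3.10.9 in Python 3.11.15.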

Additional observations from a re-analysis of the deposited data

How the results depend on the processing

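The count of forkhead genes called (2 higher and 1 lower in Col6a1+ CAFs) and that of all genes (703 and 517) rest on the 6 libraries together. With the replicate block over all genes, 0 members and 0 genes passed in either direction (limma), although 4 and 4 members, and 1851 and 2567 genes, had an unadjusted p under 0.05. With the block over genes with a mean of at least 10, 3 and 2 members and 981 and 871 genes passed. Fits that left out a library gave 0 to 1 members higher and 0 to 1 lower, and 0 to 98 genes higher and 0 to 166 lower. No gene passed in limma without Col6a1+ replicate 1, 2 or 3 or Col6a1− replicate 1, where 4 to 5 members were higher and 1 to 4 lower at an unadjusted p under 0.05. The members lower in Col6a1+ CAFs numbered 2 with library size alone, 2 with at least 10 counts in every library, 3 with limma-voom (1006 genes lower), 2 with array quality weights (969 genes lower) and 1 with a pseudocount of 0.1 (336 genes lower). Under the unadjusted criterion (p under 0.05 and a log2 fold change beyond 1 either way), 4 and 4 members and 1607 and 2273 genes passed.

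Of 327 fits of single members, 267 kept the sign and the side of the threshold, 18 lost a call, 10 gained one and 32 changed sign. The sign changed in 9 members, none of them called, and the cause was not tested. With library size alone, limma-voom and array quality weights the log2 fold change was -0.03, -0.04 and -0.04 for Foxo3 and -0.03, -0.03 and -0.17 for Foxk1. It was -0.01 and -0.02 for Foxp1 with the first and second of these, and with the weights 0.22 for Foxj2, -0.04 for Foxp4 and 0.43 for Foxd2. Leaving out a library gave -0.55 to 0.41 for Foxj2, -0.24 to 0.69 for Foxp4, -0.27 to 1.68 for Foxp2, -0.45 to 0.53 for Foxp1, -0.91 to 0.43 for Foxn3, -0.25 to 0.19 for Foxk2, -0.08 to 0.14 for Foxo3, -1.23 to 1.03 for Foxd2 and -0.26 to 0.28 for Foxk1.

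For the members at or near 0, depth limits what can be said, and the missing calls do not show that the sorts are alike.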
